A study of Mus musculus with 12 samples.

Results

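The genes described here are the mouse zinc finger genes whose array annotation carries a single symbol of the form Zfp900 to Zfp999. On the array these run from Zfp930 to Zfp995 and number 47 of the 22180 genes with a single symbol. Membership was set by the symbol, and the brightest probe set over the 12 arrays stood for each of the 4 genes that had several. The set was proposed with results of these arrays known, with Zfp932 in view, so the values of Zfp932 are given as a description. RNA came from GL261 tumours, a mouse glioma line implanted in the brains of male C57BL/6 mice aged 8 weeks; the mass was collected on day 16 after injection. Each of 4 groups had 3 arrays: Control, TMZ (temozolomide, an alkylating drug, 30 mg/kg into the peritoneum), Anti-PD-1 (intravenous antibody, given in 2 injections a week at 10 mg/kg, against PD-1, an inhibitory receptor of T cells) and Combination (both agents). The labels state neither what the Control mice received nor the dosing days, and no label ties an array to an animal of its own, so p-values measure the spread between these arrays, which may be technical.

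Proteins of this class bind DNA through arrays of C2H2 zinc fingers, and most of these genes are reckoned to the KRAB family. A KRAB domain recruits the corepressor TRIM28, which brings the histone methyltransferase SETDB1, heterochromatin proteins and DNA methylation to the bound site. Many KRAB zinc finger proteins silence retroelements, and their genes lie in clusters that arose by repeated duplication. ZFP932 is known to bind endogenous retroviruses in mouse embryonic stem cells.

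The promoter sequences are shown first because near copies of a stretch of letters recur in the promoters of many members. RefSeq promoter windows (GRCm38.p6, 250 bases before to 50 after the annotated start) were found for 43 of the 47 genes by gene number. The stretch of Zfp932 before its outermost annotated start, on the plus strand of chr5:109996260-109996501, is given with the recurring 25 bases in capitals.
Zfp932: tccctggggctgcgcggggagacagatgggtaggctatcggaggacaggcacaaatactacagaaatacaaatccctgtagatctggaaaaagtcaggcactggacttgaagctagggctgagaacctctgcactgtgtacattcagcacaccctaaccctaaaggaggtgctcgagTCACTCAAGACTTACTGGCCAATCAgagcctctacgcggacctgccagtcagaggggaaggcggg
A pattern of those 25 bases, TCACTCNAGNCTNNCTNNCCAATCA with N for any base, was written after reading the windows of Zfp932, Zfp975 and Zfp938, which were picked for their differences; its presence in those promoters was set by that choice. It has 19 fixed letters and ends in the CCAAT box, a common promoter element bound by the factor NF-Y. Allowing up to 2 mismatches on either strand, 13 of the 43 member windows held it (30.2%), against 82 of 27025 promoters of all genes (0.303%) and 14 of 264 promoters of other Zfp genes (5.3%). The 264, also used for the CCAAT share below, are RefSeq genes with a Zfp number that are not members, measured or not. They are not the same set as the 289 other Zfp genes measured on the array, and may include genes of the members' number range. Of the 13, 4 matched every fixed letter, 8 had 1 mismatch and 1 had 2, and the next closest member had 5. The matches are printed so that these near copies can be compared, with letters that match the pattern in capitals.
Zfp931 (chr2:178078527-178078551, minus strand): TCACTCaAGaCTccaTaaCCAATCA
Zfp932 (chr5:109996437-109996461, plus strand): TCACTCaAGaCTtaCTggCCAATCA
Zfp935 (chr13:62466881-62466905, minus strand): TCAaTCaAGtCTcaCTagCCAATCA
Zfp936 (chr7:43177509-43177533, plus strand): TCACTCgAaaCTtgCTggCCAATCA
Zfp937 (chr2:150218022-150218046, plus strand): TCACTCaAGaCTcaCTagCCAATCA
Zfp938 (chr10:82241339-82241363, minus strand): TCACTCaAGcCTcaCTagCCAATCA
Zfp950 (chr19:61140866-61140890, minus strand): TCACaCaAGaCTcaCTggCCAATCA
Zfp958 (chr8:4613087-4613111, plus strand): TCACTCaAGaCTcatTggCCAATCA
Zfp959 (chr17:55891994-55892018, plus strand): TCACTCatGcCTcaCTagCCAATCA
Zfp971 (chr2:178023188-178023212, plus strand): TCACTCaAGaCTcaaTagCCAATCA
Zfp972 (chr2:177925731-177925755, minus strand): TCAtTCaAGaCTcagTagCCAATCA
Zfp975 (chr7:42692824-42692848, minus strand): TCACTCgAGaCTtgCTgaCCAATCA
Zfp976 (chr7:42642650-42642674, minus strand): TCAtTCaAGaCTcgCTggCCAATCA
The block lay on the gene's own strand in all 13 members, between 25 and 105 bases before the annotated start. Any CCAAT, on either strand and counting those within the block, was in 32 of 43 member windows (74.4%), 46.6% of other Zfp promoters and 37.9% of all promoters. The TATA box letters TATAAA were in 0 of 43 member windows and 14.2% of all promoters. The members without a matched window were Zfp930, Zfp934, Zfp960 and Zfp992.

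The 12 arrays correlated with each other between 0.984 and 0.991 over all probe sets. Control replicates 1 and 2 stood apart on the first principal component (26.6% of the variance, at -20.1 and -26.4), whereas Control replicate 3 was at -1.28 and the treated arrays lay between -4.10 and 13.9. Brain cell markers were bright in every group (neuron markers from 9.96 to 10.07 log2 over the arrays, astrocyte markers from 9.05 to 9.28), glioma and progenitor markers lay at 7.06 to 7.45 in Control and 6.77 to 7.12 in the treated arrays, and T cell markers were dim at 4.46 to 4.87. Markers of dividing cells (5 of 6 listed genes measured) were at 5.21 to 5.87 in Control and 4.43 to 4.91 in the treated arrays, so this list did not overlap between Control and treated arrays. The signal is that of the whole mass, in which fewer cells of a type and less RNA per cell cannot be told apart. Member probe sets had mean log2 signals from 2.30 to 8.25, and 24 lay at or above the median gene (5.72) and 23 below it. Their median spread within groups was an SD of 0.17, against 0.12 over all genes.

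The members were compared between each treatment and Control to see how the signal of this gene family differed with each agent and with both. More members were higher than lower in every treated group. After TMZ 35 of 47 had a difference above 0 (52.1% of all genes did), with Anti-PD-1 37 (52.4%) and with Combination 40 (50.2%). With each array centred on its median the members above 0 were 40, 40 and 43, and the shares of all genes rose with them to 58.2%, 60% and 57.5%, since centring shifts every gene alike. The differences were small: the median member was 0.09, 0.10 and 0.12 higher on the log2 scale, at most a 1.09-fold difference, beside medians of 0.01, 0.01 and 0.00 over all genes. The 3 comparisons share the Control arrays. The 289 other Zfp genes leaned the same way by less, with 204, 186 and 184 above 0 and medians of 0.06, 0.05 and 0.04. As shares these were 70.6%, 64.4% and 63.7%, beside 74.5%, 78.7% and 85.1% of the members, so after TMZ the shares were close. In limma, with Benjamini-Hochberg adjustment over all genes, 0 of 47 members passed after TMZ (0.0992% of all genes did), 0 with Anti-PD-1 (0.293%) and 0 with Combination (0%). At an unadjusted p under 0.05 the members numbered 6 after TMZ (11.3% of all genes), 12 with Anti-PD-1 (13.5%) and 11 with Combination (11.6%). Of these 5, 11 and 10 were higher, where 5.47%, 6.7% and 5.43% of all genes were, and 1 each was lower, where 5.78%, 6.79% and 6.18% were: Zfp936 after TMZ and with Anti-PD-1, and Zfp984 with Combination. Of the other Zfp genes 10%, 9.69% and 10.7% were higher at an unadjusted limma p under 0.05, and 1.73%, 2.42% and 1.04% lower. In 28 members all 3 differences were above 0 (32.9% of all genes and 48.1% of the other Zfp genes). In Zfp936, Zfp957 and Zfp984 all were below (3 members, 29.8% of all genes and 17.3% of the other Zfp genes). The lean was present in both classes of signal, with 20, 20 and 21 of the 24 brighter and 15, 17 and 19 of the 23 dimmer members above 0 (59.2%, 57.1% and 60% of the brighter genes and 45%, 47.8% and 40.4% of the dimmer ones).

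Set array by array, the median member lay below its own 12-array mean in all 3 Control arrays, at -0.09, -0.15 and -0.04 in replicates 1 to 3. It was 0.04, -0.03 and 0.00 in TMZ, 0.02, -0.003 and 0.08 in Anti-PD-1 and 0.04, 0.06 and 0.01 in Combination. The Control arrays therefore lay below the 9 treated arrays, with Control replicate 3 and TMZ replicate 2 close together. Control replicates 1, 2 and 3 had 13, 11 and 18 members above their mean, and the treated arrays 21 to 33. Without Control replicates 1 and 2, with replicate 3 as the lone Control array, 28, 30 and 30 members were above 0 and the medians were 0.08, 0.09 and 0.10. The dividing cell markers moved with the groups, as given above, and their part in the differences was not tested. With the neuron marker level as a covariate the medians were 0.10, 0.12 and 0.12, and 35, 33 and 41 members were above 0. In that fit the Anti-PD-1 differences of Zfp975, Zfp976 and Zfp981 were 0.29, 0.30 and 0.65, against 0.46, 0.49 and 0.34 without the covariate.

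**Figure D1:**
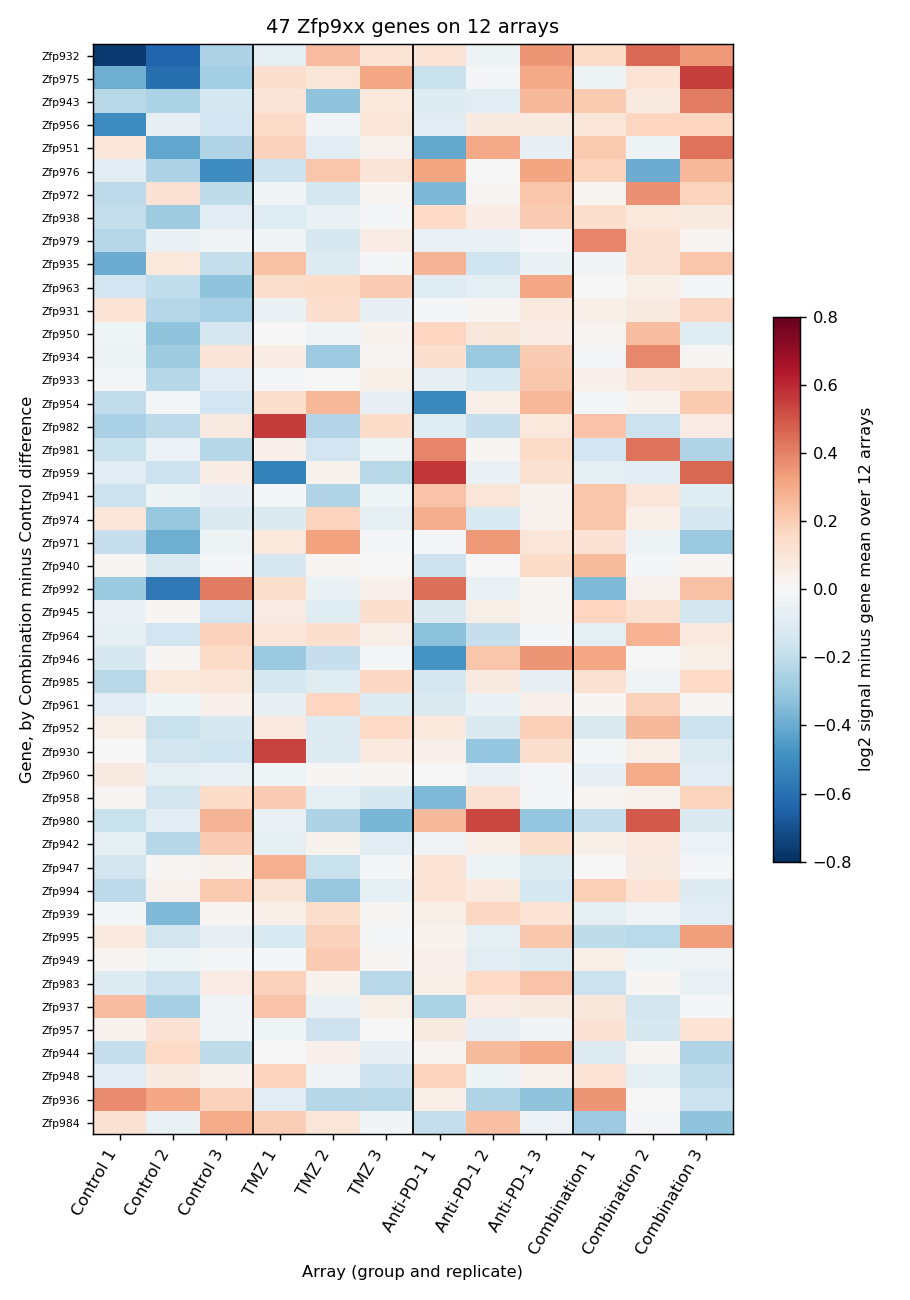
Log2 signal of the 47 members (rows, ordered by the Combination minus Control difference) on the 12 arrays (columns), each minus the gene's mean over the arrays; red is higher and blue lower. The Control columns are bluer than the treated ones in most rows, whereas Zfp936 near the bottom shows the opposite order.

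**Figure D2:**
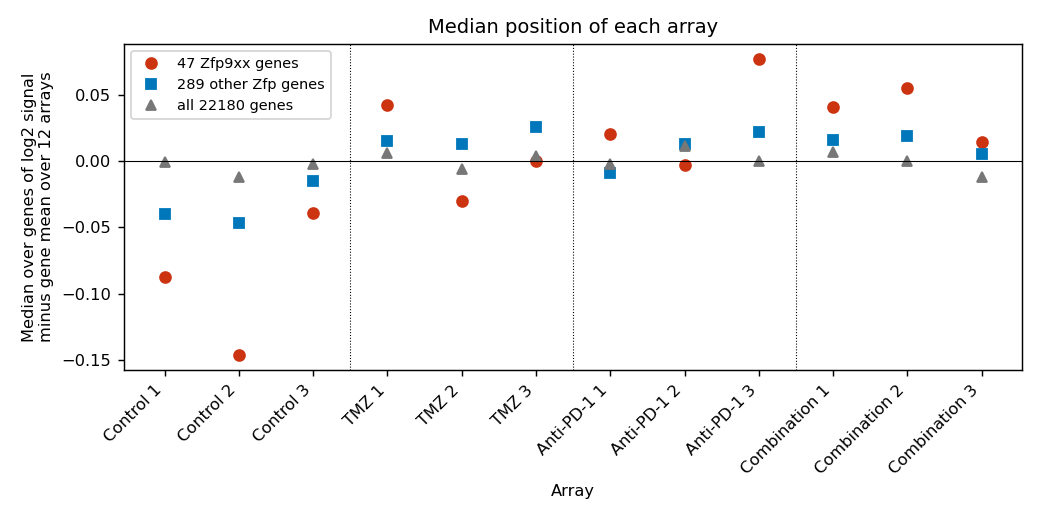
Median over genes of the log2 signal minus the gene's mean, for each array, in 47 members (circles), 289 other Zfp genes (squares) and all 22180 genes (triangles). The circles lie between -0.15 and -0.04 in Control and between -0.03 and 0.08 in the treated arrays.

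Zfp932 (probe set 17440350), the gene named when the set was proposed, had the widest differences among the members. Its log2 signal was 5.38, 5.51 and 5.90 in Control, 6.07, 6.39 and 6.26 in TMZ, 6.25, 6.11 and 6.50 in Anti-PD-1, and 6.30, 6.60 and 6.49 in Combination. All 9 treated arrays lay above the highest Control array, and the treated groups overlapped each other. Group means were 5.60 ± 0.27 (SD, n = 3) in Control, 6.24 ± 0.16 in TMZ, 6.29 ± 0.20 in Anti-PD-1 and 6.46 ± 0.15 in Combination. The differences from Control were 0.64 ± 0.14 (SE), 0.69 ± 0.14 and 0.87 ± 0.14 log2, or 1.56-fold, 1.61-fold and 1.82-fold. By size, its difference ranked 20 among the rises of all 22180 genes after TMZ, 16 with Anti-PD-1 and 1 with Combination. Against Control replicate 3 alone they were 0.34, 0.39 and 0.57 log2, and without that array 0.79, 0.84 and 1.02. Combination was 0.22 above TMZ and 0.18 above Anti-PD-1, each with an SE of 0.14, so the order of the treated groups lay within the spread.

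The adjacent genes Zfp975 and Zfp976, with no annotated gene between them, had higher means in the treated groups than in Control, whereas Zfp936, separated from them by 14 genes on chromosome 7, had lower ones. Near copies of a zinc finger gene can share probe sequence, so values of single members of such clusters are uncertain. All 3 promoters carry the block printed above. Zfp975 (probe set 17490078) read 4.89, 4.67 and 5.01 in Control, 5.41, 5.38 and 5.59 in TMZ, 5.10, 5.27 and 5.58 in Anti-PD-1 and 5.24, 5.39 and 5.84 in Combination. No treated array overlapped Control. The differences were 0.60, 0.46 and 0.63 log2 (SE 0.16 each), and all missed the threshold (limma adjusted p = 0.2, 0.228 and 0.192). Against Control replicate 3 alone they were 0.45, 0.31 and 0.48. Zfp976 (probe set 17490069) was at 4.97, 4.80 and 4.55 in Control and 5.36, 5.05 and 5.36 in Anti-PD-1, which did not overlap (0.49 ± 0.17, adjusted p = 0.246). Its TMZ and Combination arrays overlapped Control, with Combination replicate 2 at 4.65. Zfp936 (probe set 17477046) read 5.11, 5.05 and 4.92 in Control, 4.64, 4.51 and 4.51 in TMZ, 4.79, 4.50 and 4.42 in Anti-PD-1 and 5.09, 4.74 and 4.57 in Combination. Its TMZ and Anti-PD-1 arrays lay wholly below Control, at -0.47 ± 0.13 and -0.46 ± 0.13 (adjusted p = 0.215 and 0.15), and Combination replicate 1 lay among the Control arrays. Against Control replicate 3 alone, Zfp936 was at -0.37 in TMZ and -0.36 in Anti-PD-1. Zfp936 was the 1 member below Control without overlap in those comparisons, where 6.81% and 8.33% of all genes were. In either direction 7 members did not overlap after TMZ and 12 with Anti-PD-1 (15% and 18.7% of all genes). Above Control without overlap were 6 and 11 members (8.19% and 10.3% of all genes). Of the other Zfp genes 13.5% and 12.5% were above without overlap, and 2.42% and 2.77% below.

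**Figure D3:**
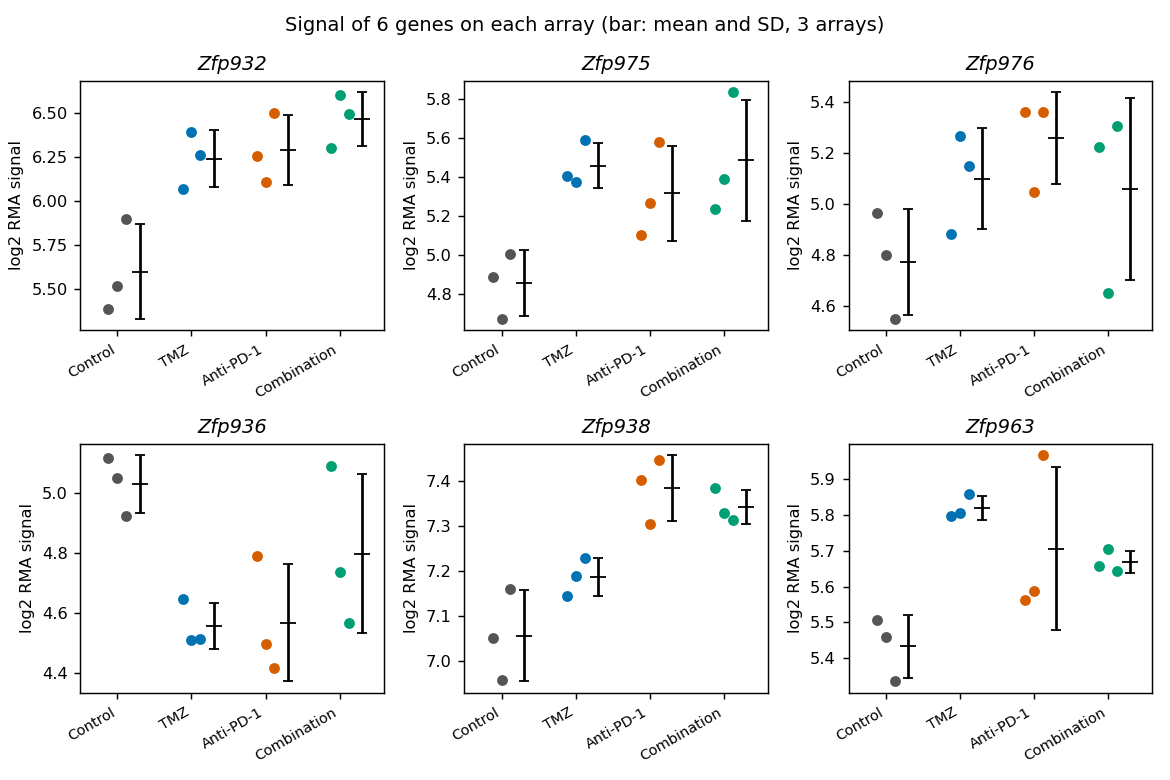
Log2 signal of Zfp932, Zfp975, Zfp976, Zfp936, Zfp938 and Zfp963 on each array (points, by group) with the mean and SD of 3 arrays (bars); each panel has its own axis, which does not start at 0. Zfp932 and Zfp975 are lowest in Control, and Zfp936 is highest there.

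Zfp938 (probe set 17243469) had the smallest adjusted p of the members with Anti-PD-1, and its spread was narrow. It read 7.05, 6.96 and 7.16 in Control, 7.14, 7.19 and 7.23 in TMZ, 7.40, 7.30 and 7.45 in Anti-PD-1 and 7.38, 7.33 and 7.31 in Combination. Both antibody groups lay above every Control and TMZ array. The differences from Control were 0.33 ± 0.07 with Anti-PD-1 (limma adjusted p = 0.063) and 0.29 ± 0.07 with Combination (adjusted p = 0.17). Without Control replicate 3, when 3.09% and 1.27% of all genes passed, Zfp938 passed in both, at 0.38 (adjusted p = 0.0163) and 0.34 (adjusted p = 0.0453); against that array alone its Combination difference was 0.18. Zfp956 (probe set 17458150) read 5.98, 6.41 and 6.33 in Control, and 6.58, 6.65 and 6.65 in Combination. The Combination arrays lay above every Control array (0.39 ± 0.10, adjusted p = 0.198), as did the TMZ arrays, from 6.46 to 6.63 (0.31 ± 0.10, adjusted p = 0.291). Without Control replicate 1, the lowest Zfp956 array, these differences were 0.26 in Combination and 0.18 in TMZ.

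In all, 8 members did not overlap between Combination and Control (16.8% of all genes). Above Control were 8, where 8.98% of all genes and 16.3% of the other Zfp genes were. Below it were 0, where 7.82% and 2.08% were. Zfp963 lay above Control without overlap in all treated groups, as Zfp932 and Zfp975 did. It read 5.34 to 5.51 in Control, 5.80 to 5.86 in TMZ, 5.56 to 5.97 in Anti-PD-1 and 5.64 to 5.70 in Combination. Its TMZ difference was 0.39 ± 0.10 (limma adjusted p = 0.178). The comparisons share the Control arrays, and the share of all genes above Control without overlap in every treated group was not counted. Zfp971 was 0.34 ± 0.13 higher in TMZ and 0.35 ± 0.13 higher in Anti-PD-1 without overlap (adjusted p = 0.378 and 0.28; against Control replicate 3 alone 0.17 and 0.18), and its Combination arrays, 6.00 to 6.42, overlapped Control, 5.92 to 6.26. Zfp981, one of the dim members at a mean of 3.19 log2, was 0.34 ± 0.16 higher in Anti-PD-1 (adjusted p = 0.37). Zfp984 had the lowest Combination difference, at -0.33 ± 0.13, and its groups overlapped.

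**Figure D4:**
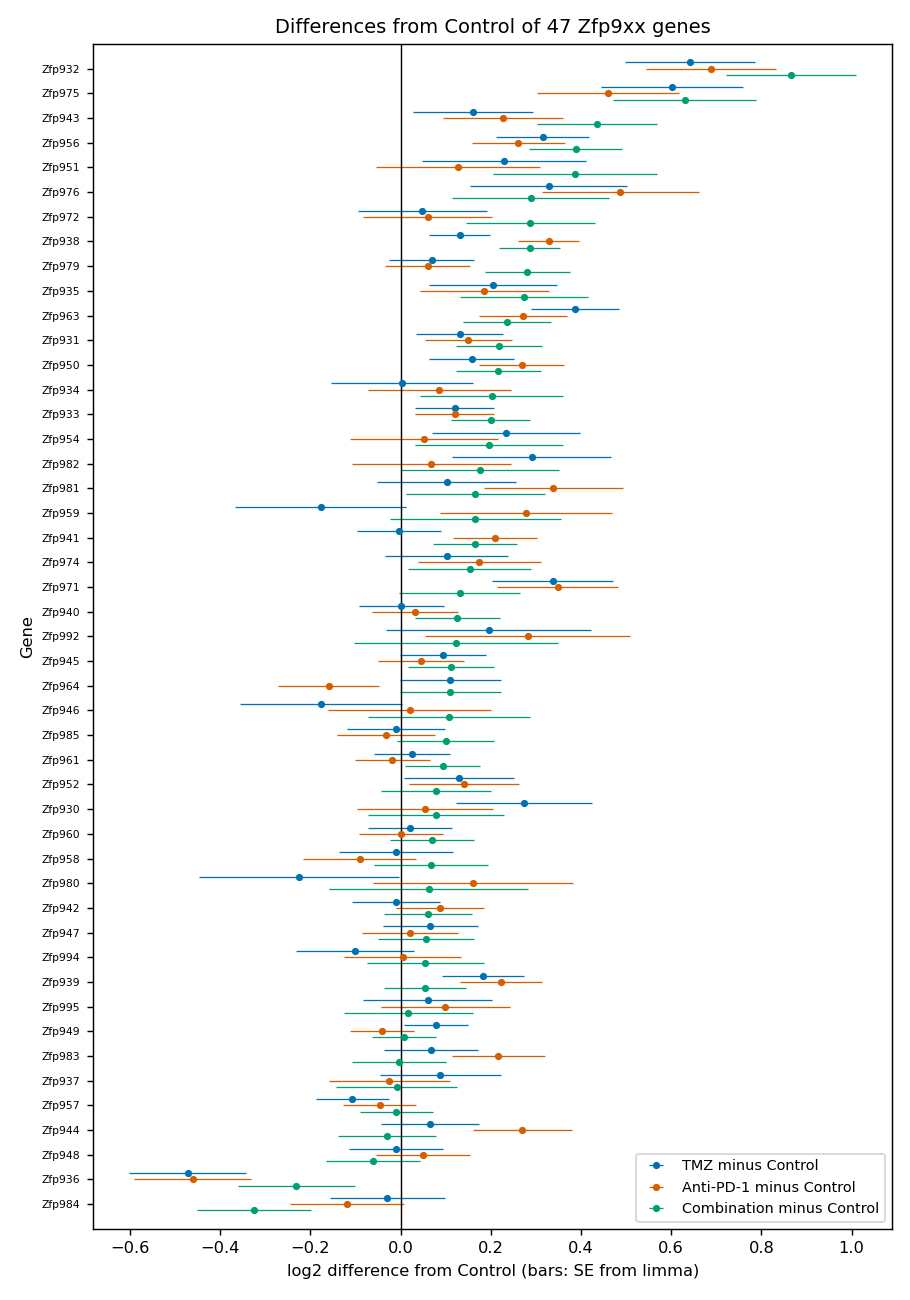
Log2 difference from Control of each member (rows) in TMZ, Anti-PD-1 and Combination (points), with the SE from limma (bars). Points above 0 number 35, 37 and 40 of 47; Zfp932 lies farthest right in each comparison, Zfp936 farthest left in TMZ and Anti-PD-1, and Zfp984 farthest left in Combination.

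By position, 29 members fell into 6 groups of neighbours, taking members with at most 40 annotated genes between them, and 18 stood alone. The group on chromosome 4 (8 members, Zfp980 to Zfp933) had medians of 0.09, 0.09 and 0.15 in TMZ, Anti-PD-1 and Combination. All 3 members of the group on chromosome 2 (Zfp972 to Zfp931) were above 0 in each comparison, with medians of 0.13, 0.15 and 0.22, as were both of the pair on chromosome 13 (Zfp935 and Zfp934; 0.10, 0.14 and 0.24). On chromosome 8 (3 members, Zfp930 to Zfp963) the medians were 0.27, 0.06 and 0.11. The group on chromosome 17 (10 members, Zfp948 to Zfp945) had medians of 0.06, 0.07 and 0.06. Within it Zfp942 and Zfp943 start 95 bases apart on opposite strands, and their promoter windows overlap by 194 bases. The 55 bases between the outermost starts of this pair, on the plus strand of chr17:21962504-21962558, are shown because both genes share them, with CG dinucleotides in capitals.
Zfp942 and Zfp943: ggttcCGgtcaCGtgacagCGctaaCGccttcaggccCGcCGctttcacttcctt
Zfp943 (probe set 17333986) read 6.32, 6.29 and 6.40 in Control and 6.75, 6.61 and 6.95 in Combination, without overlap (0.44 ± 0.13, limma adjusted p = 0.249). Zfp942 was at 6.70, 6.55 and 6.98 in Control and 6.83, 6.86 and 6.73 in Combination, which overlapped (0.06 ± 0.10, adjusted p = 0.854). The difference between the pair was not tested.

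The 13 members with the promoter block had medians of 0.13, 0.27 and 0.22 in TMZ, Anti-PD-1 and Combination, and the 30 with a window and no block 0.07, 0.08 and 0.10. Without Zfp932, Zfp938 and Zfp975, from which the pattern was written, the medians of the other 10 were 0.11, 0.17 and 0.19. The shares above 0 were alike, at 10, 10 and 11 of 13 and 21, 24 and 25 of 30. The block members spanned the whole range of the members after TMZ, from Zfp936 at -0.47 to Zfp932 at 0.64 after TMZ. Another 26 measured genes with the block had medians of 0.02, 0.14 and 0.11, with 15, 19 and 19 above 0.

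**Figure D5:**
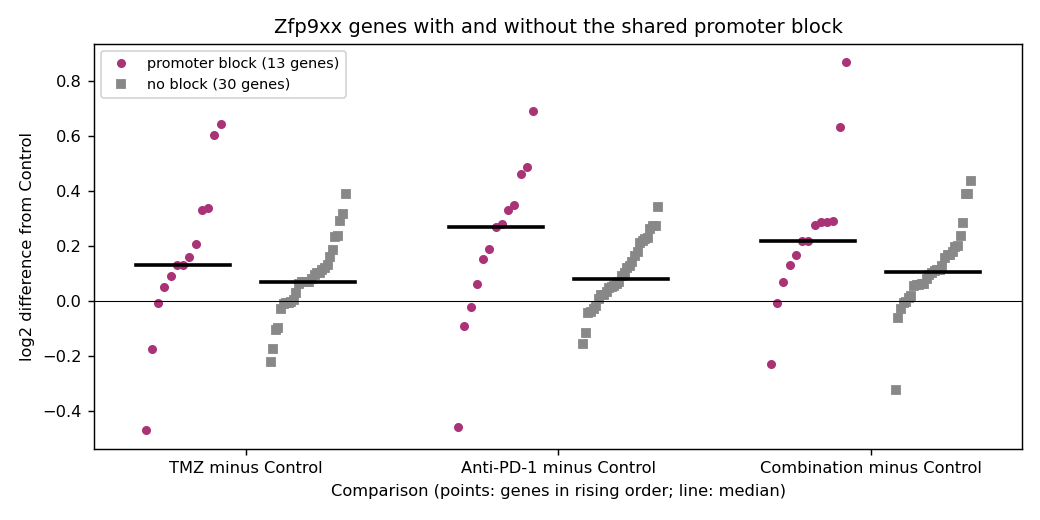
Log2 differences from Control of members with the promoter block (circles, 13 genes) and without it (squares, 30 genes), in rising order within each comparison, with the median as a line. The medians are 0.13, 0.27 and 0.22 with the block and 0.07, 0.08 and 0.10 without; the pattern was written from 3 of the circles.

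Between the treated groups the median member differences were 0.06 log2 for Combination minus TMZ, 0.05 for Combination minus Anti-PD-1 and -0.01 for TMZ minus Anti-PD-1. That last median turned with 1 array left out, to 0.013 without Anti-PD-1 replicate 3 and 0.006 without TMZ replicate 2, and was -0.046 without Anti-PD-1 replicate 2, so it had no stable direction. Above 0 were 30, 28 and 20 members (48.8%, 47.8% and 49.5% of all genes). In limma 0 members passed between Combination and TMZ (0% of all genes did), between Combination and Anti-PD-1 (0%) or between TMZ and Anti-PD-1 (0%), with 3, 3 and 4 at an unadjusted p under 0.05 (4.19%, 4.91% and 4.51% of all genes). Of these, 2 were higher and 1 lower in Combination than in TMZ (1.76% and 2.43% of all genes), 2 higher and 1 lower in Combination than in Anti-PD-1 (2.01% and 2.9%), and 1 higher and 3 lower in TMZ than in Anti-PD-1 (2.11% and 2.39%). The F test over the 4 groups called 0 members (0.00451% of all genes), with 7 at an unadjusted p under 0.05 (10.1%). Zfp938 was 0.20 ± 0.07 lower in TMZ than in Anti-PD-1 and 0.16 ± 0.07 lower than in Combination, without overlap in either (limma adjusted p = 1 for both). Zfp979, known as the strain-specific modifier Ssm1b that directs methylation of a transgene, was at 4.23, 3.96 and 3.86 in Combination, above 3.78 to 3.83 in Anti-PD-1 (0.22 ± 0.09, adjusted p = 1). The 2 further, dimmer probe sets of Zfp979 went the other way. Their differences from Control were -0.17 and 0.10 in Combination, and -0.08 and 0.24 in Anti-PD-1, and these groups overlapped in both. Zfp964 was 0.27 ± 0.11 higher in TMZ than in Anti-PD-1 and 0.27 ± 0.11 higher in Combination than in Anti-PD-1, and Zfp944 was lower in Combination than in Anti-PD-1 (-0.30 ± 0.11). Zfp984 was at -0.30 ± 0.13 between Combination and TMZ and Zfp959 at -0.46 ± 0.19 between TMZ and Anti-PD-1, all at an adjusted p = 1. In Zfp944, Zfp959 and Zfp984 the groups overlapped, and Zfp964 overlapped between Combination and Anti-PD-1 but not between TMZ (5.44 to 5.53) and Anti-PD-1 (5.06 to 5.38).

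Groups that did not overlap were found for 5 members between Combination and TMZ (8.51% of all genes), 4 between Combination and Anti-PD-1 (10.5%) and 4 between TMZ and Anti-PD-1 (8.77%). Combination lay above TMZ in Zfp938, Zfp946 and Zfp972 (3 members, 3.81% of all genes) and below it in Zfp939 and Zfp963 (2 members, 4.7%). Against Anti-PD-1, Combination was above in Zfp956 and Zfp979 (2 members, 4.87%) and below in Zfp939 and Zfp983 (2 members, 5.67%). TMZ lay above Anti-PD-1 in Zfp964 (1 member, 4.38%) and below it in Zfp938, Zfp941 and Zfp950 (3 members, 4.39%). Of these, Zfp941 read 5.94, 5.72 and 5.93 in TMZ and 6.19, 6.06 and 5.99 in Anti-PD-1 (-0.21 log2), and its Control arrays, 5.79 to 5.92, lay with TMZ. Zfp972 read 5.95, 5.84 and 5.99 in TMZ and 6.00, 6.34 and 6.16 in Combination (0.24 log2), so its groups were barely separate. Zfp939 was below both single agents in Combination, at 6.19 to 6.25.

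The interaction takes the effect of the antibody on top of TMZ and subtracts its effect without TMZ, and so asks whether the agents together differ from the sum of each alone. It was above 0 in 17 of 47 members (36.2%, and 46.2% of all genes), with a median of -0.06 beside -0.02 over all genes. The 289 other Zfp genes were much alike, with 34.9% above 0 and a median of -0.05. The Control mean enters the interaction with a plus sign, so this lean is not separate from the low Control arrays described above. The member median was -0.03 without TMZ replicate 1 and -0.09 without TMZ replicate 2. In limma 0 members passed (0.00451% of all genes did) and 6 had an unadjusted p under 0.05 (8.92%), 1 of them above 0 (Zfp936; 4.65% of all genes) and 5 below (Zfp932, Zfp939, Zfp944, Zfp963 and Zfp971; 4.27%). The smallest p values were those of Zfp936 (0.70 ± 0.18, adjusted p = 0.281), whose Combination mean of 4.80 lay between those of Control (5.03) and the single agents (4.56 and 4.57), Zfp963 (-0.42 ± 0.14, adjusted p = 0.383) and Zfp971 (-0.55 ± 0.19, adjusted p = 0.415).

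Probe sets that the choice of members did not use gave another reading of 4 genes, and were all dimmer. For Zfp939 the second probe set differed from Control by 0.33, 0.24 and 0.01 log2 in TMZ, Anti-PD-1 and Combination, and the chosen one by 0.18, 0.22 and 0.05. For Zfp943 the second (mean 3.62) gave -0.06, 0.06 and -0.09, unlike the chosen one (0.16, 0.23 and 0.44). For Zfp937 both lay between -0.03 and 0.09. The 2 further probe sets of Zfp979, at means of 2.63 and 1.92, gave -0.17 and 0.10 in Combination, and the chosen one 0.28. A further 21 probe sets were annotated with several symbols including at least 1 of this number range. They may share target sequence with the members, and 19, 17 and 20 of them were above Control, with medians of 0.10, 0.13 and 0.14. Of all probe sets 53%, 54.1% and 51.1% were above Control. The 21 are not all separate readings, since probe sets 17380491 and 17395272 read the same on every array.

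A list of corepressor and silencing genes tied to KRAB proteins lay about 0. Of 41 listed symbols 37 were measured. They include Zfp57 and Zfp809, zinc finger genes that are also among the 289 other Zfp genes. Of the 37, 19, 17 and 18 were above 0 in TMZ, Anti-PD-1 and Combination, with medians of 0.01, -0.01 and -0.01. In limma 0 passed in any of these comparisons, and 4, 6 and 6 had an unadjusted p under 0.05 (11.3%, 13.5% and 11.6% of all genes). Of these 4, 5 and 5 were lower, where 5.78%, 6.79% and 6.18% of all genes were. Trim28, the central corepressor, was at 0.01 ± 0.06, -0.03 ± 0.06 and -0.01 ± 0.06, and Setdb1, its histone methyltransferase partner, at 0.06 ± 0.06, 0.03 ± 0.06 and 0.09 ± 0.06. The smallest p values belonged to genes below 0. Uhrf1, which recruits the maintenance methyltransferase to new DNA, was at -0.61 ± 0.12, -0.46 ± 0.12 and -0.59 ± 0.12 (adjusted p = 0.107, 0.113 and 0.139), and Dnmt1, that enzyme, at -0.21, -0.20 and -0.17 (SE 0.05 each; adjusted p = 0.178, 0.122 and 0.267). Cbx3, a heterochromatin protein, was at -0.24 ± 0.07 in TMZ and -0.24 ± 0.07 in Anti-PD-1 (adjusted p = 0.215 and 0.135), and the remodeller gene Hells at -0.40 ± 0.12 in Combination (adjusted p = 0.229). Beside these stand the dividing cell markers, lower in the treated arrays as given above; their part was not tested.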

How the data were processed

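Each of 12 arrays gave 1 column of log2 signals. The authors processed them with RMA in the Affymetrix Expression Console, per the submitters' processing notes (version and genome build not given in the sources used here), and the deposited log2 values cover 41345 probe sets, from 1.24 to 13.1. RMA corrects background, quantile normalizes the arrays together and summarises probes, which can shrink small differences and hides a shift common to most genes. The array annotation gave 1 symbol to 23521 probe sets and several to 1814, and 16010 were not listed and are unnamed here. Genes were fitted with limma 3.58.1 in R 4.3.3 (a mean per group, all 12 arrays, 8 residual degrees of freedom, eBayes), with two-sided p-values adjusted by Benjamini-Hochberg over 22180 genes and a threshold of 0.05. No read depth exists for arrays, and 3 arrays a group limit the precision. The fit was run on simulated data with planted changes, each larger than any member difference from Control in the fit of all 12 arrays. The simulation therefore does not show how often differences of the sizes given here would be found.

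The members and lists were chosen with earlier results of these data known, so no list was tested. Named members were Zfp932, those past the threshold, and, per comparison with Control, the 5 largest differences each way among members whose groups did not overlap; between other groups and for the interaction, the 3 smallest p values; members with several probe sets; and of the corepressor list Trim28, Setdb1 and the 3 smallest p values. Zfp938 with Anti-PD-1, Zfp942, Zfp963 beyond TMZ, Zfp976 outside Anti-PD-1, Zfp936 in Combination, Zfp957, Zfp984 against Control, and the further members named in counts of groups without overlap or of unadjusted p values were named after their values were seen. Promoters and neighbours came from RefSeq (GRCm38.p6). Alternatives were another probe set rule, all probe sets, a level filter, an intensity trend, centring, a neuron covariate, a replicate block, only the groups compared, and leaving out arrays; leaving out Control replicates 1 and 2 together, counts above 0 under each alternative and the promoter pattern were chosen after seeing the data.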

Additional observations from a re-analysis of the deposited data

Results flagged for a closer look

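Zfp939 and Zfp963 were the members in which the antibody arrays lay on opposite sides without and with TMZ. In Zfp939 the Anti-PD-1 arrays (6.32, 6.44 and 6.39) lay above the Control arrays (6.27, 5.92 and 6.29), and the Combination arrays (6.20, 6.25 and 6.19) below the TMZ arrays (6.33, 6.42 and 6.29). Its interaction was -0.35 log2 (limma adjusted p = 0.443), and -0.56 in its second, dimmer probe set. That second probe set did not show the separation of the groups. In it Anti-PD-1 (4.606 to 4.726) overlapped Control (4.324 to 4.653), and Combination (4.155 to 4.665) overlapped TMZ (4.628 to 4.965). In Zfp963 the Anti-PD-1 arrays (5.56 to 5.97) lay above Control (5.34 to 5.51) and the Combination arrays (5.64 to 5.70) below TMZ (5.80 to 5.86), with an interaction of -0.42 (limma adjusted p = 0.383). Neither interaction passed the threshold. Over all genes, Anti-PD-1 lay above Control without overlap in 10.3% and Combination below TMZ in 4.7%. The share of all genes with both was not counted.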

How the results depend on the processing

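The counts of called members, 0 in each comparison, depended on single settings. Leaving out 1 array at a time gave 0 to 1 called members after TMZ, 0 to 2 with Anti-PD-1, 0 to 2 with Combination and 0 to 1 in the F test; all of these calls came without Control replicate 3 and were, in the comparisons with Control, Zfp932 in each and Zfp938 in both antibody groups. Calls rose throughout without that array, to 1.64%, 3.09%, 1.27% and 1.1% of all genes. The set was proposed with Zfp932 in view, so calls of Zfp932 under any setting are a description. With an intensity trend the counts were 1, 2, 1 and 1, and 0.509%, 1.72%, 0.189% and 0.406% of all genes were called. With genes below the median level dropped, 2 members passed with Anti-PD-1 (Zfp932 and Zfp938), as did 1.85% of the genes kept, and 20, 20 and 21 of the 24 members left were above 0. The median member difference without 1 array lay between 0.068 and 0.156 with Anti-PD-1 (0.156 without Anti-PD-1 replicate 2), between 0.09 and 0.18 with Combination (0.18 without Control replicate 3) and between 0.009 and 0.073 for Combination minus Anti-PD-1 (0.009 without Combination replicate 1, 0.029 without Combination replicate 2 and 0.021 without Anti-PD-1 replicate 2). For TMZ minus Anti-PD-1 it lay between -0.046 and 0.013 and changed sign. The differences from Control of the members followed through these settings kept their sign in each. A replicate block, with the replicate number as a term, called 0 members in every comparison. It called 0.018%, 0.0902% and 0% of all genes after TMZ, with Anti-PD-1 and with Combination. The labels do not say whether the numbers pair the arrays. Deviations of same-numbered arrays correlated between -0.16 and 0.16 (median -0.012), and those of other pairs between -0.27 and 0.20 (median 0.003). The limit of depth does not apply to arrays; 23 members lay below the median gene level, where signals sit nearer background.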
